A study of Mus musculus with 20 samples.

Results

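The 10 genes described here were followed through microglial RNA of mThy1-α-synuclein and wild-type mice. They are 7 non-coding host genes of small nucleolar RNAs (Gas5, Snhg1, Snhg5, Snhg6, Snhg8, Snhg12 and Zfas1) and 3 protein-coding genes, Tpt1, Npm1 and Pabpc1. They were chosen by name for the kind of transcript they make, with earlier results of these data known. All 10 were among the 24062 genes of the deposited table, where Zfas1 is listed under the older symbol 1500012F01Rik, and all 10 were expressed highly enough to be tested at both ages. Their values were set beside those of the 79 cytoplasmic ribosomal protein genes of the table, of which 78 were tested.

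The study sequenced polyadenylated RNA of microglia from male mice of the B6D2F1/J background, with 1 whole brain and no pooling behind each sample. At 7 months there were 6 mThy1-α-synuclein mice, labelled HEM, and 4 wild-type mice, and at 10 months there were 5 of each. The mThy1-α-synuclein mice carry full-length human wild-type α-synuclein on the X chromosome under the murine Thy-1 promoter, which is active mainly in neurons rather than in microglia. The question was how the microglial transcriptome of these mice differs from that of wild-type mice at an earlier and a later stage of the motor phenotype. The sample labels name IBA1 beads for the isolation and the methods name CD11b beads.

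Thy1 RNA lay between 392 and 1298 normalized counts in the mThy1-α-synuclein mice at 7 months and between 17.7 and 47.6 in the wild-type mice, and at 10 months between 1117 and 1741 against 9.41 to 32.4 and no mouse went against its genotype label. A normalized count is a read count divided by the size factor of the mouse. Reads on genes numbered 33404096 to 77806399 per mouse. The 15 microglial markers summed to between 2201420 and 2797730 normalized counts per mouse, against 757 to 2425 for 15 neuronal markers. The sums of 10 neutrophil and monocyte markers were larger than the neuronal sums. At 7 months they were 49410 to 461075 in mThy1-α-synuclein and 79507 to 298933 in wild-type mice. At 10 months they were 77819 to 205803 in mThy1-α-synuclein and 165472 to 411992 in wild-type mice. Every sample thus held some RNA of other cells. At 7 months the neuronal sum was 808 to 1201 in mThy1-α-synuclein and 1572 to 2425 in wild-type mice, without overlap. Called lower were 7 of the 15 neuronal, 6 of the 12 astrocyte and 3 of the 11 tested oligodendrocyte markers. The astrocyte list also had 1 marker called higher. Its sum overlapped, at 9867 to 12630.5 (median 11640.5) in mThy1-α-synuclein and 9715 to 12912 (median 10488) in wild-type mice. Of its 12 markers, 10 had a lower and 2 a higher value, with a median log2 fold change of -1.36. The oligodendrocyte sum was 8000 to 10325 in mThy1-α-synuclein and 12914 to 18342 in wild-type mice, without overlap. The endothelial and mural sum at 7 months was 3045 to 5143 against 5491 to 6707, and the lymphocyte sum 324 to 868 against 1194 to 2278. At 10 months the sum of 8 border macrophage markers was 19568 to 25096 against 26491 to 36611, with 4 of the 8 called lower, and the lymphocyte markers summed to 336 to 651 against 965 to 2153. At that age the 10 tested neutrophil and monocyte markers had a median log2 fold change of -1.04, with 2 called lower, and 4 of the 15 microglial markers were called higher. The part of these other cells in the values below was not tested, and in RNA of whole isolates fewer cells of a type and less RNA per cell cannot be told apart.

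Small nucleolar RNAs guide the chemical modification and processing of ribosomal RNA, and most of them in mammals are cut out of the introns of host genes. The hosts named Snhg or Gas5 make spliced RNAs with little coding potential that are often short-lived, because a ribosome that starts on them soon meets a stop codon and nonsense-mediated decay follows. Many hosts share with ribosomal protein genes a first transcribed base that is a C followed by a run of pyrimidines, the terminal oligopyrimidine (TOP) motif, through which mTOR and LARP1 couple the translation and stability of these RNAs to growth signals. Tpt1 encodes the translationally controlled tumour protein and Pabpc1 the main cytoplasmic poly(A)-binding protein, both classical TOP mRNAs. Npm1 encodes nucleophosmin, a nucleolar chaperone of ribosome assembly.

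In the mouse annotation (GRCm38, the genome to which the reads were mapped as mm10), Gas5 on chromosome 1 holds 9 genes of small RNAs of this kind within its bounds, Snhg1 on chromosome 19 holds 8, Snhg12 on chromosome 4 holds 4, Zfas1 on chromosome 2 holds 3 and Snhg5 on chromosome 9 holds 2. Snhg6 on chromosome 1 holds Snord87, Snhg8 on chromosome 3 holds Snora24 and Tpt1 on chromosome 14 holds Snora31. None was annotated inside Npm1 on chromosome 11 or Pabpc1 on chromosome 15. The small RNAs themselves are not polyadenylated, so the values below describe RNA of the host genes. How far that RNA was spliced was not tested. The 7 genes for which a RefSeq start sequence (GRCm38.p6) was at hand differ in what surrounds their annotated first base. The windows below run from 15 bases before the first transcribed base to the 15th transcribed base, on the transcribed strand, with pyrimidine runs of at least 5 bases in capitals. They are shown because the motif was the reason for setting these genes beside the ribosomal protein genes, and they include the gene whose level followed that of the ribosomal protein genes most closely.
Snhg8, chr3:123508322-123508351, minus strand: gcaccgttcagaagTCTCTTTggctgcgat
Gas5, chr1:161035151-161035180, plus strand: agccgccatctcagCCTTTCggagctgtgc
Snhg12, chr4:132308663-132308692, plus strand: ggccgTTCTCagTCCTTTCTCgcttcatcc
Snhg1, chr19:8723472-8723501, plus strand: gttgTTCTTgtcggcctcaTTTTTCCTTgt
Tpt1, chr14:75845241-75845270, plus strand: gtcaccgctgacgacagttccgggggagcc

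At the Gas5 and Snhg8 starts the annotated first base is a C inside a pyrimidine run, and at the Snhg12 start a run of 9 pyrimidines spans the first base. A C followed by at least 4 more pyrimidines, with the C no more than 5 bases from the first base, was found in 3 of the 8 windows of these genes, in 44.1% of 68 ribosomal protein windows and in 18.3% of all 32851 RefSeq windows at hand. With the C exactly at the first base the shares were 2 of 8, 20.6% and 2.51%. The ribosomal protein windows were those of 58 genes. The windows of Snhg1 and Snhg5 held no such run this near the first base. Those of Tpt1, Zfas1 and the other start annotated for Gas5 held no run of at least 5 pyrimidines. For Tpt1 the annotations differ, with the gene starting at 75845256 in RefSeq and at 75845093 in GENCODE. Which starts were used in these cells was not tested for any gene, ribosomal protein genes included. A window therefore does not show whether the RNA, such as that of Tpt1, carries the motif. Snhg6, Npm1 and Pabpc1 have positions in RefSeq, but no start sequence was at hand for them.

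Per kilobase of exon, Tpt1 was the most abundant of the 10 in every group, followed by Pabpc1, Npm1 and Gas5, and Snhg5 was the least abundant. At 7 months Tpt1 reached 105775 ± 7661 (SD, n = 6) normalized counts per kilobase in mThy1-α-synuclein and 147346 ± 15863 (SD, n = 4) in wild-type mice. Pabpc1 stood at 37283 ± 5905 and 45955 ± 2883, and Snhg5 at 314 ± 56.3 and 319 ± 49.6. Between Gas5 and Snhg5 the other hosts lay close together. In wild-type mice of 7 months, Gas5, Snhg8, Snhg12, Zfas1, Snhg1 and Snhg6 each overlapped the next in this order in the range of their mice, whereas Tpt1, Pabpc1, Npm1 and Gas5 did not overlap one another, nor did Snhg6 and Snhg5. In both 10-month groups the ranges of the neighbours from Snhg1 down to Snhg6 overlapped.

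**Figure D1:**
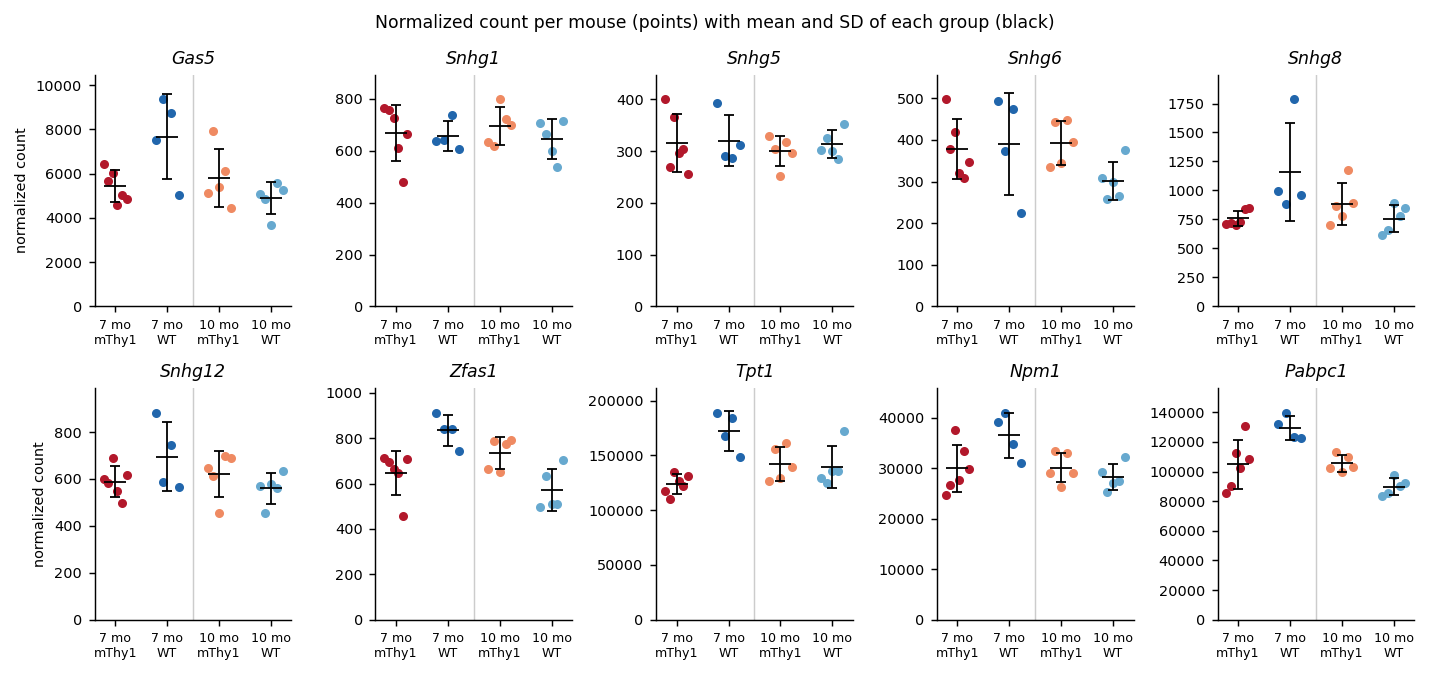
Normalized counts of the 10 genes in every mouse (vertical axis, linear from 0), in mThy1-α-synuclein (mThy1) and wild-type (WT) mice of 7 and 10 months, with the mean and SD of each group in black. The 2 ages were normalized separately, so levels are to be compared within an age. At 7 months the mThy1-α-synuclein mice lie below all wild-type mice for Tpt1, Snhg8 and Zfas1, and at 10 months they lie above all wild-type mice for Pabpc1.

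At 7 months Tpt1 fell in mThy1-α-synuclein mice and was the single gene of the 10 that passed the test. Its normalized counts ranged from 110433 to 134540 (median 124137) in the 6 mThy1-α-synuclein mice and were 189064, 167520, 184278 and 148128 in the 4 wild-type mice. Every mThy1-α-synuclein mouse was below every wild-type mouse. Tpt1 fell by 28.0%, a log2 fold change of -0.47 ± 0.084 (SE), with an adjusted p of 0.00439 in limma over all 13887 genes tested. Of all genes tested, 2.7% were called lower and 2.23% higher, so 1 of 10 called lower and 0 of 10 called higher is a small count. Of all genes tested, 3.97% had every mThy1-α-synuclein mouse below every wild-type mouse, as had Tpt1, Snhg8 and Zfas1, and 3.55% had every one above, as had none of the 10.

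Snhg8 and Zfas1 also separated the genotypes at 7 months without passing the test. Snhg8 ranged from 699 to 849 normalized counts (median 726) in mThy1-α-synuclein mice and stood at 998, 883, 1786 and 960 in wild-type mice. Wild-type replicate 3 was far above the other wild-type mice. The log2 fold change of Snhg8 was -0.55 ± 0.16 (SE, adjusted p = 0.0694), and without wild-type replicate 3 it was -0.32 (adjusted p = 0.121). Zfas1, host of Snord12, ranged from 458 to 714 (median 679) and stood at 912, 841, 838 and 744 in wild-type mice. The log2 fold change of Zfas1 was -0.38 ± 0.13 (SE, adjusted p = 0.10), with mThy1-α-synuclein replicate 5 the lowest of its group.

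Gas5, named for its accumulation in growth-arrested cells, had a log2 fold change of -0.47 ± 0.16 (SE, adjusted p = 0.125) at 7 months, close to that of Tpt1. Its normalized counts ranged from 4574 to 6441 (median 5354) in mThy1-α-synuclein mice and were 7537, 9362, 8758 and 5043 in wild-type mice. The groups overlapped only through wild-type replicate 4, and without that mouse Gas5 passed the test with a log2 fold change of -0.66. Pabpc1 ranged from 85239 to 131129 (median 105484) against 132067, 139801, 123256 and 122700, with mThy1-α-synuclein replicate 5 as the overlapping mouse. Its log2 fold change was -0.31 ± 0.10 (SE, adjusted p = 0.0967), and without that mouse it passed the test as well. Npm1 had -0.29 ± 0.11 (SE, adjusted p = 0.152) and Snhg12 -0.22 ± 0.14 (SE, adjusted p = 0.364).

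The other 3 hosts had fold changes near 0 at 7 months. Snhg1, host of 8 small RNAs, ranged from 480 to 765 (median 696) in mThy1-α-synuclein mice and was 636, 642, 739 and 608 in wild-type mice. The wild-type values fell within the range of the mThy1-α-synuclein mice. The log2 fold change of Snhg1 was 0.011 (95% interval -0.27 to 0.29, adjusted p = 0.974). Snhg5 had a log2 fold change of -0.029 (95% interval -0.37 to 0.31) and Snhg6 of -0.0027 (95% interval -0.44 to 0.44), so that differences the size of that in Tpt1 were outside the interval for Snhg1 and Snhg5 and just outside it for Snhg6. Over the 10 genes the log2 fold change at 7 months had a median of -0.30, against 0.00093 over all genes tested.

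The ribosomal protein genes set the scale for these differences. The mean of log2(normalized count + 1) over 78 ribosomal protein genes was 14.07 ± 0.067 (SD, n = 6) in mThy1-α-synuclein and 14.50 ± 0.16 (SD, n = 4) in wild-type mice of 7 months, and the groups did not overlap. The difference was -0.43, a fold of 0.745 (two-sided exact permutation test, p = 0.00476, the smallest that 210 assignments of the mice allow). Of the 78 genes, 69 were called lower and 1 higher. Rps12 and Rpl17 had log2 fold changes of -0.58 and -0.59 (adjusted p = 0.00183 for each), and Rpl30 and Rpl34, at 11.8 and 21.6 normalized counts in mThy1-α-synuclein mice, had the lowest and highest at -1.76 and 2.08 without passing the test. Rpl29, named after its values were seen, was the gene called higher. Ribosomal protein genes, Tpt1 and Npm1 have processed pseudogenes of near-identical sequence, and how reads that map to several places were counted is not given in the sources used here, so their absolute levels are uncertain.

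**Figure D2:**
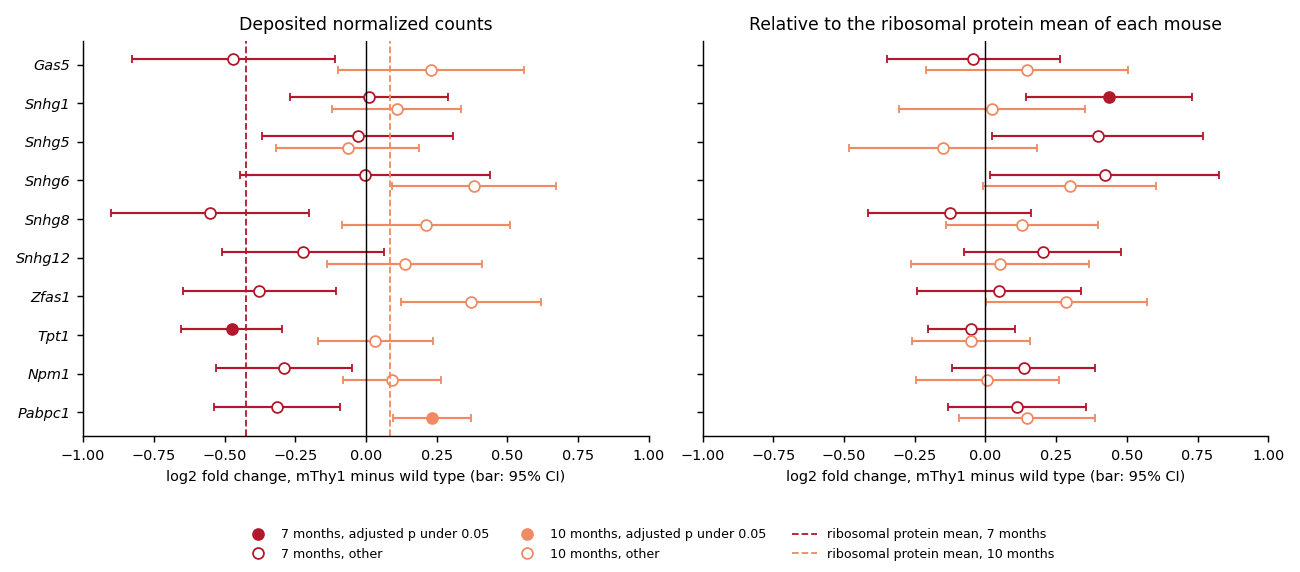
Log2 fold changes (mThy1-α-synuclein minus wild type, horizontal axis) of the 10 genes with 95% intervals, at 7 months (dark red) and 10 months (orange), from the deposited values (left) and after subtracting the ribosomal protein mean of each mouse (right). Filled points passed the test and dashed lines mark the difference in the ribosomal protein mean, -0.43 at 7 and 0.085 at 10 months. On the left the 7-month values of Tpt1, Gas5, Zfas1 and Snhg8 lie near the 7-month line and those of Snhg1, Snhg5 and Snhg6 lie near 0. Those of Pabpc1, Npm1 and Snhg12 lie between the line and 0.

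To ask which of the 10 moved apart from the ribosomal protein genes, the mean over the 78 genes was subtracted from every gene of the same mouse and all genes were tested again. At 7 months the log2 fold changes of Tpt1 became -0.050 ± 0.073 (SE, adjusted p = 0.582), of Gas5 -0.044 ± 0.14 (SE, adjusted p = 0.816), of Zfas1 0.049 ± 0.14 (SE, adjusted p = 0.782) and of Snhg8 -0.13 ± 0.14 (SE, adjusted p = 0.441). The relative level of Tpt1 ran from 2.77 to 2.94 in mThy1-α-synuclein and from 2.78 to 3.01 in wild-type mice, on the log2 scale above the ribosomal protein mean. The 95% interval of the Tpt1 difference was -0.20 to 0.10, so the fold change of Tpt1 differed from that of the ribosomal protein mean by at most 0.20 in either direction within that interval.

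Snhg1 rose relative to the ribosomal protein mean at 7 months and was the 1 gene of the 10 called on this scale. Its relative level ran from -5.14 to -4.41 in mThy1-α-synuclein mice and was -5.20, -5.17, -5.09 and -5.09 in wild-type mice, and only mThy1-α-synuclein replicate 5, at -5.14, fell among the wild-type values. The log2 difference was 0.44 ± 0.14 (SE, adjusted p = 0.0138). Snhg5, with 0.40 ± 0.18 (SE, adjusted p = 0.0640), and Snhg6, with 0.42 ± 0.19 (SE, adjusted p = 0.0676), had differences of the same size and did not pass the test. Because the ribosomal protein mean itself was lower, 57.8% of all genes were called higher on this scale and 1.32% lower, and the median over all genes was 0.43. The values of Snhg1, Snhg5 and Snhg6 lay close to that median, and those of Tpt1, Gas5, Snhg8 and Zfas1 lay close to 0, the place of the ribosomal protein mean. Pabpc1 (0.11), Npm1 (0.14) and Snhg12 (0.20) lay between 0 and the median and were not called, so the 10 genes did not fall into separate classes.

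**Figure D3:**
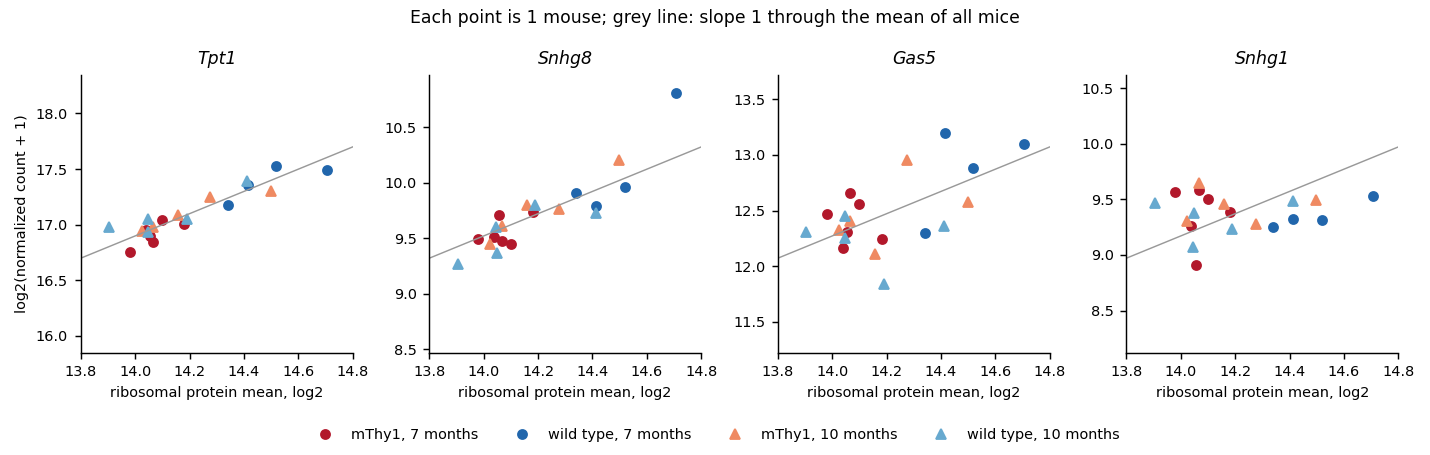
Log2(normalized count + 1) of Tpt1, Snhg8, Gas5 and Snhg1 (vertical axes, each of the same height) against the mean over 78 ribosomal protein genes (horizontal axis) in each of the 20 mice, with a line of slope 1 through the mean of all mice. The ages were normalized separately, so points are to be compared within an age. The Tpt1 points keep close to the line, the Snhg8 points follow it except for wild-type replicate 3 of 7 months at 10.80, the Gas5 points scatter around it, and the Snhg1 points stay between 8.91 and 9.64 without following it.

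The spread within the groups, which does not involve the genotype difference, put Tpt1 with the ribosomal protein genes as well, but it did not sort all genes as the fold changes did, since Gas5 and Snhg6 changed places. The SD of log2 values around the group means over the 20 mice was 0.15 for Tpt1 and 0.079 once the ribosomal protein mean of the mouse was subtracted. For Snhg8 it went from 0.28 to 0.18, for Snhg6 from 0.30 to 0.25, for Snhg12 from 0.22 to 0.20 and for Zfas1 from 0.20 to 0.18. It did not become smaller for Gas5 (0.28 and 0.28), Npm1 (0.17 and 0.18), Pabpc1 (0.14 and 0.18), Snhg1 (0.19 and 0.23) or Snhg5 (0.19 and 0.23). The subtraction gave a smaller SD for 5 of the 10 genes, for 78 of the 78 ribosomal protein genes, which make up the mean, and for 18.4% of 13484 genes tested at both ages. Tpt1 and the median ribosomal protein gene, at 0.078, had nearly equal relative spreads.

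The genes whose values followed each of the 10 most closely within groups were found by Pearson's r over the 20 mice, as a description of mice that share library preparation and normalization. For Tpt1 they were Rpl7 (r = 0.99), Eef1b2 (r = 0.97), a subunit of the elongation factor that recharges eEF1A, and Sec61g (r = 0.95), and 23 of the 50 closest genes were ribosomal protein genes. For Snhg8 they were Mlf2, Eif3k and Rpl37 (r = 0.87 each), with 14 ribosomal protein genes among the 50 closest. For Npm1 they were Nucb2 (r = 0.90), Ncl (r = 0.89), which encodes the nucleolar protein nucleolin, and Fkbp3 (r = 0.89), with 2 ribosomal protein genes among 50. For Pabpc1 they were Tceal8 (r = 0.91), Abracl (r = 0.90) and Hmgb1 (r = 0.88), with none. For Snhg6 they were Syce2, Naa20 and Polr2k (r = 0.90, 0.85 and 0.84), with 1. Of the other 5, none had a ribosomal protein gene among its 50 closest, and the closest genes were Nanp for Gas5, Apob for Snhg1, Oas1c for Snhg5, Vdac3 for Snhg12 and Cmc1 for Zfas1 (r between 0.74 and 0.86). Among the 10, the closest pair was Npm1 with Pabpc1 (r = 0.73), followed by Snhg12 with Snhg6 (r = 0.69) and Npm1 with Tpt1 (r = 0.69).

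At 10 months Pabpc1 was higher in mThy1-α-synuclein mice and was the 1 gene of the 10 that passed the test. Its normalized counts were 102288, 112932, 99744, 109770 and 103032 in mThy1-α-synuclein mice and 83595, 85339, 97516, 90542 and 92366 in wild-type mice. The lowest mThy1-α-synuclein mouse was above the highest wild-type mouse. Pabpc1 rose by 17.5%, a log2 fold change of 0.23 ± 0.064 (SE), with an adjusted p of 0.0415 in limma over 13627 genes. The call was close to the threshold and was lost when any 1 of 9 of the 10 mice was left out, all but wild-type replicate 3, with adjusted p between 0.0528 and 0.10. Of all genes tested at 10 months, 3.88% were called higher and 3.79% lower, and 3.78% had every mThy1-α-synuclein mouse above every wild-type mouse and 3.49% every one below, so 1 of 10 is again a small count.

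The other 9 genes did not pass the test at 10 months. Zfas1 came nearest, at 665, 788, 649.6, 773 and 793 normalized counts in mThy1-α-synuclein and 498, 633, 512, 508 and 704 in wild-type mice. The groups overlapped through wild-type replicate 5, and the log2 fold change was 0.37 ± 0.12 (SE, adjusted p = 0.0656). Snhg6, host of Snord87, stood at 335, 444, 344, 447 and 395 against 308, 259, 299.7, 265 and 375, with overlap through wild-type replicate 5. Its log2 fold change was 0.38 ± 0.14 (SE, adjusted p = 0.101). Gas5 had 0.23 ± 0.15 (SE, adjusted p = 0.391) and Snhg8 0.21 ± 0.14 (SE, adjusted p = 0.384). Tpt1 stood at 126321, 155669, 129325, 161751 and 139012 against 128955, 124843, 135833, 135495 and 171948. Those values overlapped throughout, and the log2 fold change of Tpt1 was 0.033 (95% interval -0.17 to 0.24, adjusted p = 0.871), an interval that leaves out a difference of the size measured at 7 months. Snhg12, Snhg1, Npm1 and Snhg5 had 0.14, 0.11, 0.091 and -0.065. The median over the 10 genes was 0.17, against -0.0026 over all genes.

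The ribosomal protein mean did not separate the genotypes at 10 months. It was 14.20 ± 0.19 (SD, n = 5) in mThy1-α-synuclein and 14.12 ± 0.19 (SD, n = 5) in wild-type mice, a difference of 0.085 (two-sided exact permutation test, p = 0.524, where the smallest p that 5 against 5 mice allow is 0.00794). Of the 78 ribosomal protein genes, 0 were called lower by limma, as by edgeR and DESeq2, and 5 had an unadjusted p under 0.05 in either direction. Over all genes tested, 3209 of 13627 had an unadjusted limma p under 0.05. Rpl21 was called higher, with a log2 fold change of 0.41 (adjusted p = 0.0306). Relative to the ribosomal protein mean, 0 of the 10 genes passed limma's test at 10 months, with an unadjusted p under 0.05 for Zfas1 alone (log2 difference 0.29 ± 0.14 SE, adjusted p = 0.348), and 0.558% of all genes were called higher and 1.36% lower. An unadjusted limma p under 0.05 was found for 1949 of all 13627 genes on this scale, where Pabpc1 had 0.15 ± 0.11 (SE, adjusted p = 0.607).

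Whether the genotype difference itself changed with age was tested in 1 fit of all 20 mice, as the difference at 10 months minus that at 7 months. The methods state that both genotypes of an age were processed together up to nucleic acid isolation. Age and processing cohort therefore cannot be told apart in this test. Zfas1 (0.75 ± 0.17 SE, adjusted p = 0.0126), Pabpc1 (0.55 ± 0.13 SE, adjusted p = 0.0119), Tpt1 (0.51 ± 0.13 SE, adjusted p = 0.0208) and Snhg8 (0.76 ± 0.23 SE, adjusted p = 0.0467) passed, all with a positive sign on the log2 scale. They were 4 of 10 genes, where 3.87% of 14030 genes were called higher and 2.73% lower. The values of Zfas1, Pabpc1 and Snhg8 had opposite signs at the 2 ages, and Tpt1 was lower at 7 months with a value near 0 at 10 months. Gas5 had a value of similar size, 0.70 ± 0.24 (SE, adjusted p = 0.0864), that did not pass, and Snhg1 (0.097) and Snhg5 (-0.037) had values near 0. Of the 78 ribosomal protein genes 58 were called higher in the same test, and 34 without wild-type replicate 3 of 7 months. Of the 15 neuronal and 12 astrocyte markers, 6 and 7 were called higher in it, with medians of 1.85 and 1.62, and their part in these values was not tested. After the ribosomal protein mean of each mouse was subtracted, a setting chosen after seeing the data, 0 of the 10 genes passed limma's test of the difference between ages, with 1 at an unadjusted p under 0.05. On that scale 41.7% of all genes were called lower and 1.09% higher, with a median of -0.51. The value of the 10 farthest from 0 was that of Snhg5, at -0.55 (adjusted p = 0.0523), and the value of Tpt1 was -0.0016, of Pabpc1 0.037, of Zfas1 0.24 and of Snhg8 0.25. The Snhg8 call was lost without any 1 of 13 of the 20 mice, and the Tpt1 call without wild-type replicate 1 of 7 months (adjusted p = 0.0542).

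Other genes with the same kind of transcript or the same machinery were described by lists. Of 21 other TOP mRNAs, mostly elongation and initiation factors, 12 were called lower at 7 months and 0 higher, with a median log2 fold change of -0.32. They included Eef1b2 (-0.48, adjusted p = 0.00364), Nap1l1 (-0.57, adjusted p = 0.00293), a histone chaperone, and Eif3h (-0.45, adjusted p = 0.00323), a subunit of initiation factor eIF3. Without wild-type replicate 1 or 3 the count was 9. At 10 months 1 was called lower, Vim (-0.72, adjusted p = 0.0119), which encodes the intermediate filament protein vimentin, and 1 higher, Eif4b (0.25, adjusted p = 0.0323), an activator of the helicase eIF4A, and the median was 0.073. In the difference between ages 9 of the 21 were called higher, and 5 without wild-type replicate 1 of 7 months.

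Of 14 other non-coding hosts of small nucleolar RNAs 10 were tested, and 0 were called by limma at 7 months. At that age 3 had an unadjusted p under 0.05, edgeR called 0 and DESeq2 called 1, and 5 were lower and 5 higher, with a median of 0.0026. At 10 months 0 were called by limma, edgeR or DESeq2, with 1 at an unadjusted p under 0.05, and 9 of the 10 values were positive, with a median of 0.26. Over all genes tested, 2962 of 13887 had an unadjusted limma p under 0.05 at 7 months and 3209 of 13627 at 10 months. The 20 protein-coding hosts had 2 called lower and 1 called higher at 7 months. Those called lower were Eef1b2 and Rack1 (-0.44, adjusted p = 0.0121), which are also TOP mRNAs, and the one called higher was Gnl3 (0.37, adjusted p = 0.0381), which encodes nucleostemin. At 10 months Hspa8 (-0.52, adjusted p = 0.0252), a constitutive chaperone, and Eif4a2 (-0.30, adjusted p = 0.0325) were called lower.

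**Figure D4:**
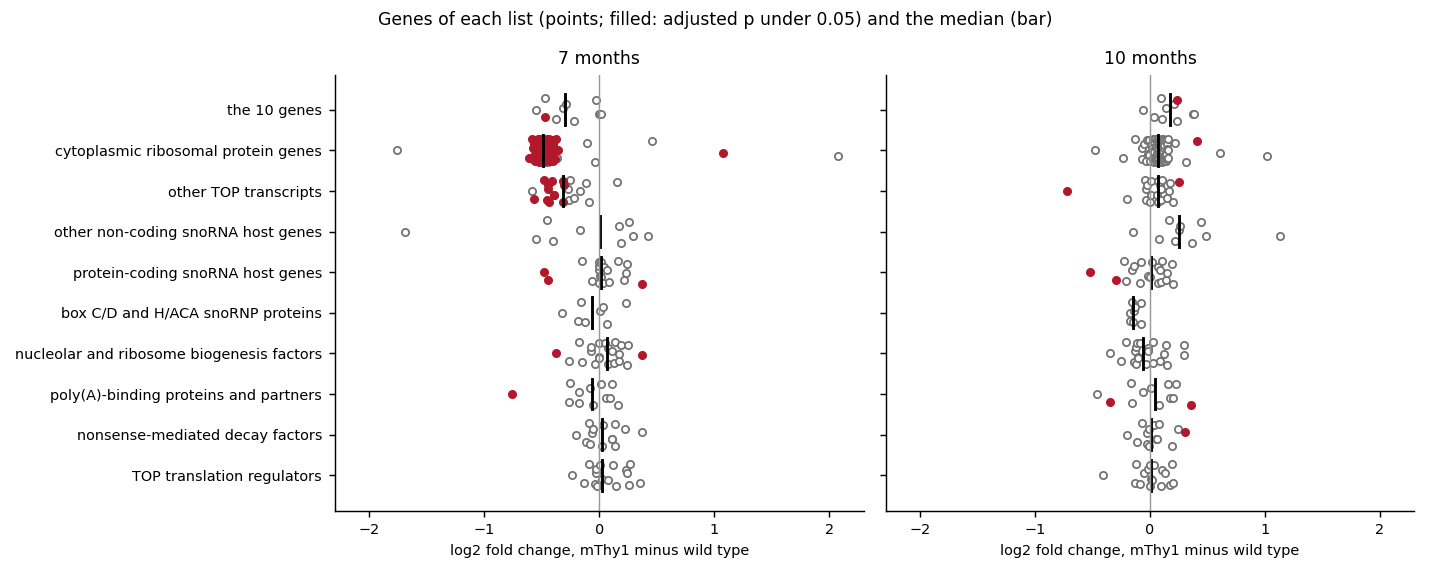
Log2 fold changes (mThy1-α-synuclein minus wild type, horizontal axis) of the tested genes of 10 lists at 7 and 10 months, with called genes filled and the median of each list as a bar. At 7 months the ribosomal protein genes and other TOP mRNAs sit to the left, with medians of -0.49 and -0.32, as do the 10 genes, with -0.30, and the medians of the remaining 7 lists lie between -0.066 and 0.063.

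The proteins that work on these RNAs are set beside all genes tested, of which 2.7% were called lower and 2.23% higher at 7 months. At 10 months 3.79% were called lower and 3.88% higher. An unadjusted limma p under 0.05 was found for 2962 of 13887 genes at 7 months and for 3209 of 13627 at 10 months. Against these shares, a count of 0 in a list this short says little about the list. Of 8 core proteins of the small nucleolar ribonucleoproteins, such as fibrillarin and dyskerin, 0 were called at either age by limma, edgeR or DESeq2, with 2 at an unadjusted p under 0.05 at 7 months and 0 at 10 months. Of 17 regulators of TOP translation, among them Larp1 and Mtor, limma called 0 at either age, edgeR called 0, and DESeq2 called 1 higher at 7 and 1 lower at 10 months, with 5 and 3 at an unadjusted p under 0.05. Of 14 nonsense-mediated decay factors limma called 0 at 7 months (2 at an unadjusted p under 0.05, and 1 called higher by edgeR and by DESeq2) and 1 higher at 10 months, the endonuclease gene Smg6 (0.30, adjusted p = 0.0339). Of 22 nucleolar and ribosome biogenesis factors Polr1a (-0.38, adjusted p = 0.0151), the largest subunit of RNA polymerase I, was called lower and Gnl3 higher at 7 months. Of 12 poly(A)-binding proteins and their partners other than Pabpc1, Gspt1 was called lower at both ages (-0.76, adjusted p = 0.00123, and -0.35, adjusted p = 0.0172). Gspt1 encodes the termination factor eRF3a, which binds the poly(A)-binding protein. Pan2 (0.36, adjusted p = 0.0255), a poly(A) nuclease, was called higher at 10 months.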

How the data were processed

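RNA of microglia from 20 male mice was analysed, grouped by genotype and age from the sample labels. The authors used Trim Galore 0.6.7 for trimming, HISAT2 2.2.1 for mapping to mm10 and featureCounts for the gene counts. The deposited signal values are these counts divided by the authors with a DESeq2 1.44.0 size factor for each mouse, computed within each age. Because of this, levels were compared only within an age. Dividing by the step of each mouse gave back whole reads for 100% of the low values. In mThy1-α-synuclein replicate 5 of 10 months the step was too close to 1 for this to be tested. The annotation release, the strand setting and the handling of multimapping reads are not given in the sources used here. The smallest chi-square between mice of a group was 24.7 per gene, so all 20 mice differed by more than sampling noise.

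Genes that reached 10 in 4 or more mice (7 months) or 5 or more (10 months) were tested with limma 3.58.1 (trend, robust) on log2(value + 1) in R 4.3.3, with Benjamini-Hochberg adjustment over all genes and a threshold of 0.05. Fold changes on this scale understate the change of low genes. The ribosomal protein mean of each mouse was the mean over 78 genes. Length per gene was the union of exons. Alternatives were pseudocounts of 0.5 and 5, no filter, a replicate block, edgeR 4.0.16 and DESeq2 1.42.0 on the recovered reads, TMM rescaling, the median over ribosomal protein genes and leaving out each mouse. The fits were tested on simulated data, and Python 3.11.15 was used for the descriptions and figures.

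The 10 genes were always named, with up to 3 called genes of each list and age by smallest p, the extremes among ribosomal protein genes and the 3 closest genes by Pearson's r. A gene that this rule names is not reported here. The genes and lists were chosen with earlier results of these data known. Mice of equal number did not deviate together (r from -0.13 to 0.10 over 9 pairs), so the block is an alternative only.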

Additional observations from a re-analysis of the deposited data

Results flagged for a closer look

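Among the 10 genes and the ribosomal protein mean, 3 of 44 groups of values held a mouse far from the others, where chance gives about 1 in 20. Snhg8 stood at 1786 normalized counts in wild-type replicate 3 of 7 months, whose ribosomal protein mean, 14.71, was the highest of its group. Zfas1 stood at 458 in mThy1-α-synuclein replicate 5 of 7 months, the mouse that was also lowest for Snhg1 (480) and highest for Pabpc1 (131129) in its group. Tpt1 stood at 171948 in wild-type replicate 5 of 10 months, whose ribosomal protein mean, 14.41, was the highest of its group.

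The genotype difference of 4 genes differed between the ages in the test of that difference in limma, with log2 values (10 months minus 7 months) of 0.76 for Snhg8, 0.75 for Zfas1, 0.51 for Tpt1 and 0.55 for Pabpc1. The Snhg8 value was 0.54 without the wild-type mouse named above, and the Zfas1 value was 0.65 without the mThy1-α-synuclein mouse. In the same test 58 of 78 ribosomal protein genes were called higher.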

How the results depend on the processing

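Tpt1 was called lower at 7 months under every alternative run and without any 1 of the 10 mice, and its fold change relative to the ribosomal protein mean was called under none. The number of the 10 genes called at 7 months was 3 (Gas5, Snhg8 and Tpt1) with DESeq2, and 1 to 2 when 1 mouse was left out. At 10 months it was 2 (Zfas1 and Pabpc1) with DESeq2, and 0 to 1 when 1 mouse was left out, with Zfas1 called in place of Pabpc1 without wild-type replicate 5. In the difference between ages it was 3 to 5 under the other tools and settings, 2 to 5 when 1 mouse was left out (2 without wild-type replicate 1 of 7 months, 5 without wild-type replicate 4, which added Gas5) and 0 relative to the ribosomal protein mean. Snhg8 was lost there without a filter (adjusted p = 0.0606) and without mThy1-α-synuclein replicates 1 to 4 and wild-type replicates 1 and 3 of 7 months or mThy1-α-synuclein replicates 2 to 5 and wild-type replicates 1, 2 and 4 of 10 months, and without mThy1-α-synuclein replicate 3 of 7 months Npm1 was gained. Relative to the ribosomal protein mean at 7 months it was 1 to 3 when 1 mouse was left out, with Snhg5 added without mThy1-α-synuclein replicate 6 and Snhg5 and Snhg6 added without wild-type replicate 1. The difference in the ribosomal protein mean at 7 months stayed between -0.48 and -0.35.

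The labels give the mice of each group numbers that were not found to pair them (0 of 9 pairs had r over 0.1). With the number as a replicate block, the count of the 10 genes was 0 at 10 months, 3 relative to the ribosomal protein mean at 7 months (Snhg1, Snhg5 and Snhg6), and 3 in the difference between ages, where Tpt1 was not called (adjusted p = 0.0546). The block turned the sign of Snhg5 (0.050) and Snhg6 (0.093) at 7 months, of Snhg1 in the difference between ages (-0.013) and of Gas5 relative to the ribosomal protein mean at 7 months (0.042), none of them called.

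The other changes of sign were in values near 0 that were not called or, for Tpt1 in the difference between ages, lost with the ribosomal protein mean subtracted. That subtraction gave log2 values between ages of -0.0016 for Tpt1, -0.41 for Snhg1, -0.12 for Snhg6, -0.15 for Snhg12 and -0.13 for Npm1. Rescaling with TMM gave Snhg6 0.0054 at 7 months, and the median over ribosomal protein genes gave Npm1 -0.0077 at 10 months on the relative scale. When 1 mouse was left out, the 7-month values ran from -0.032 to 0.10 for Snhg1, from -0.10 to 0.074 for Snhg5 and from -0.25 to 0.13 for Snhg6, the 10-month values from -0.014 to 0.11 for Tpt1, and those of the difference between ages from -0.14 to 0.036 for Snhg5. On the relative scale they ran at 7 months from -0.18 to 0.092 for Gas5, from -0.21 to 0.032 for Snhg8 and from -0.018 to 0.14 for Zfas1, and at 10 months from -0.063 to 0.11 for Snhg1, from -0.013 to 0.13 for Snhg12 and from -0.026 to 0.075 for Npm1. The cause was not tested.

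Over all genes, 684 were called at 7 months (695 by edgeR, 1152 by DESeq2, 414 with the replicate block, 282 without wild-type replicate 1, 444 without 2 and 371 without 3). At 10 months it was 1045 (1080 by edgeR, 1695 by DESeq2, and 497 to 671 without wild-type replicates 1, 2, 3 or 5 or mThy1-α-synuclein replicates 1, 3 or 5). In the difference between ages it was 926 (954 by edgeR, 481 with the block, and 6000 relative to the ribosomal protein mean, of which 5847 lower and 153 higher against 383 and 543). Relative to the ribosomal protein mean at 10 months it was 261 (616 with the block and 84 to 368 when 1 mouse was left out). The width of the 95% intervals given above comes from the spread between 4 to 6 mice a group.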
